A study of Homo sapiens with 60 samples.

Results

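The 10 genes described here carry heme and iron through the cell: HMOX1, HMOX2, BLVRA, BLVRB, FTH1, FTL, TFRC, SLC40A1, ALAS1 and SLC48A1. They were chosen by name for these roles, and each matched 1 of the 60675 gene entries of the deposited table. Their mRNA was measured by RNA sequencing 24 h after treatment in HT29, a widely used line derived from a human colorectal adenocarcinoma. The 60 libraries formed 25 groups. Astragali Radix, Cnidii Rhizoma, Cinnamomi Cortex, Paeoniae Radix and Rehmanniae Radix Preparata were each given as a 70% ethanol extract at 500, 100 and 20 µg/mL, called the high, medium and low dose, with 3 libraries per dose. Angelicae Gigantis Radix was given at 320, 64 and 12.8 µg/mL with 2 libraries per dose. The formulas Sagunja-tang and Samul-tang were given at 500, 100 and 20 µg/mL with 1 library per dose and were not tested. The vehicle, dimethyl sulfoxide (DMSO), had 3 libraries, and its strength is 0.1% in the sample labels and 2% in the text on the series. No label says how much solvent came with an extract dose, or that the replicates of a group were grown apart. The p-values below therefore rest on the spread of these libraries alone, and that spread may be technical.

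Heme oxygenase, encoded by HMOX1 (the inducible form) and HMOX2 (the constitutive form), opens the heme ring and releases iron, carbon monoxide and biliverdin. BLVRA encodes the reductase that turns this biliverdin into bilirubin, and BLVRB encodes a flavin and biliverdin reductase. Freed iron is stored in ferritin, a shell of heavy (FTH1) and light (FTL) chains, or leaves through ferroportin (SLC40A1). Iron enters bound to transferrin through the transferrin receptor (TFRC). ALAS1 encodes the first and rate-limiting enzyme of heme synthesis outside red cells, and SLC48A1 (HRG1) moves heme out of endosomes and lysosomes. Transcription of HMOX1 and of both ferritin genes is known to be held down by BACH1, which heme displaces, and raised by NRF2 with its small MAF partners.

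Part of iron control acts on mRNA through the iron-responsive element, a hairpin bound by the iron regulatory proteins (genes ACO1 and IREB2) when iron is scarce. Binding near the 5′ end blocks translation of ferritin and ferroportin mRNA, while binding in the 3′ untranslated region shields TFRC mRNA from decay. Of the quantities here, counts of mRNA bear on the second route and do not measure translation. The element was searched in GENCODE v29 protein-coding transcripts as C, 5 bases, the loop CAGTGN with A, C or T at its end, and 5 bases that pair fully with the first run (G with T allowed). It was found in 4 of the 10 genes and in 1.09% of 19669 gene names searched. Transcripts were read on their own strand only. The 7 sites are shown as the matches to this pattern among the members, and a response to iron was not tested. Each is 30 bases, 5′ to 3′ on the gene's strand, with the loop in capitals.
FTH1, 5′ untranslated region, chr11:61967573-61967602, minus strand: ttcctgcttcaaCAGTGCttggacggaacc
FTL, 5′ untranslated region, chr19:48965335-48965364, plus strand: ctcttgcttcaaCAGTGTttggacggaaca
SLC40A1, 5′ untranslated region, chr2:189580660-189580689, minus strand: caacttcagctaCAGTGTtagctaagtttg
TFRC, 3′ untranslated region, chr3:196050978-196051007, minus strand: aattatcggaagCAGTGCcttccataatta
TFRC, 3′ untranslated region, chr3:196050574-196050603, minus strand: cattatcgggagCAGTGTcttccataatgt
TFRC, 3′ untranslated region, chr3:196050509-196050538, minus strand: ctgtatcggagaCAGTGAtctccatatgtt
TFRC, 3′ untranslated region, chr3:196050462-196050491, minus strand: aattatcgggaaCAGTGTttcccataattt
Coordinates are those of GRCh38. The ferritin sites lie near the start of the transcript and the 4 TFRC sites within its tail. A match is a description of letters in these transcripts, and no match was found in HMOX1, HMOX2, BLVRA, BLVRB, ALAS1 or SLC48A1.

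Library totals ran from 17798492 to 31134188 expected counts. Of 9 colon epithelial markers 8 averaged at least 1 CPM (counts scaled to a common library total), and their summed level was 9630 to 20800 CPM. Erythroid markers (4 genes) summed to 0 to 3.22 CPM, hepatocyte markers (3 genes) to 0.137 to 0.878 CPM, macrophage and leukocyte markers (4 genes) to 2.55 to 7.76 CPM, and fibroblast and endothelial markers (5 genes) to 2.26 to 10.6 CPM. In bulk samples fewer cells of a type and less RNA per cell cannot be told apart. The 3 libraries of the high Astragali Radix dose stood apart from each other: their pairwise correlations across genes were 0.94118 to 0.97975, against 0.99577 or higher within every other replicated group, and mitochondrial transcripts took 1.99% of counts in replicate 1, 6.72% in replicate 2 and 7.82% in replicate 3. That comparison was therefore fitted on its own 6 libraries, so that its wide spread did not enter the other tests. Fitted changes were scaled by trimmed means (TMM). Scaling by library totals moved the median change of all genes in that comparison from 0.02 to -0.35 on the log2 scale, and its genes called from 3330 higher and 2783 lower to 2019 higher and 4699 lower. Levels in CPM follow the library totals, so both fitted values are given there. In the difference between that change and the one with Cnidii Rhizoma, described further down, the median of all genes moved from 0 to -0.32 and the higher share of calls from 53.1% to 30%, and in every other comparison the median moved by less than 0.1. The share of calls that were higher nonetheless went from 57.3% to 44.1% for the high dose of Paeoniae Radix, from 56.5% to 38.5% for Angelicae Gigantis Radix, from 51.1% to 33.3% for Cnidii Rhizoma, from 56.7% to 42.1% for Rehmanniae Radix Preparata and from 53.8% to 30.7% for Cinnamomi Cortex. At the medium dose it went from 43.8% to 11.2% for Astragali Radix and from 52.2% to 31.7% for Cnidii Rhizoma by library totals, and from 58.2% to 79.9% for Paeoniae Radix with DESeq2.

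HMOX1 (ENSG00000100292, chr22:35380361-35394214, plus strand) was the member with the widest range, from 9.957 to 391.1 CPM over the 60 libraries around a median of 11.8 CPM. The vehicle libraries held 10.5, 11.5 and 10.2 CPM. With Astragali Radix the low dose gave 11.1, 11.6 and 10.5 CPM, the medium dose 16.7, 15.6 and 15.7 CPM, and the high dose 241.5, 297.0 and 391.1 CPM. With Cnidii Rhizoma the low dose gave 12.7, 12.0 and 12.4 CPM, the medium dose 18.8, 17.2 and 16.8 CPM, and the high dose 72.25, 74.0 and 72.4 CPM. All libraries of the high and medium doses of these extracts lay above their own low dose and above vehicle, and every high-dose Astragali Radix library lay above every high-dose Cnidii Rhizoma library.

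The next extract in order of HMOX1 was Rehmanniae Radix Preparata, at 17.7, 15.8 and 16.1 CPM with the high dose against 11.9, 11.8 and 11.7 CPM with the low. Angelicae Gigantis Radix followed with 14.95 and 13.6 CPM at its high dose against 11.2 and 11.1 CPM at its low. The high dose of Paeoniae Radix gave 13.6, 11.7 and 11.4 CPM against 11.3, 10.8 and 10.6 CPM, and Cinnamomi Cortex 11.2, 10.6 and 11.0 CPM against 11.9, 11.4 and 11.1 CPM. Among group means the order was high Astragali Radix (309.9 ± 75.6 CPM, SD, n = 3), high Cnidii Rhizoma (72.9 ± 0.984), then medium Cnidii Rhizoma (17.6 ± 1.06), high Rehmanniae Radix Preparata (16.5 ± 1.05) and medium Astragali Radix (16.0 ± 0.593), and high Angelicae Gigantis Radix (14.3). The libraries of high Rehmanniae Radix Preparata overlapped those of both medium doses, which did not overlap each other. The other groups with replicates averaged 10.3 to 12.4 CPM, including all low doses and vehicle (10.8 ± 0.703), and lay too close together to be ordered.

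**Figure D1:**
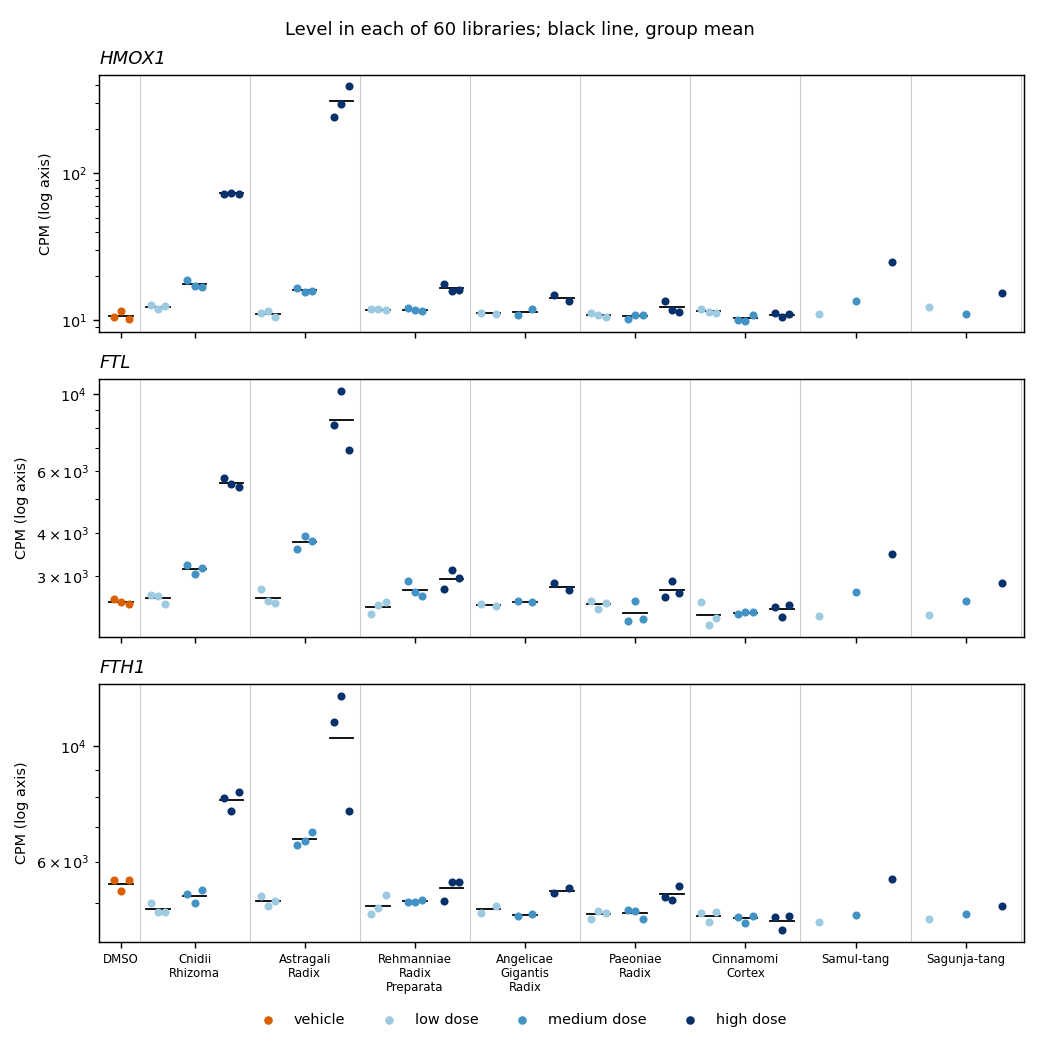
Level of HMOX1, FTL and FTH1 in CPM (log axis) in each of the 60 libraries, grouped by vehicle, extract and dose; points are libraries and black lines are means of groups with replicates. HMOX1 stands at 241.5 to 391.1 CPM with the high dose of Astragali Radix and at 72.25 to 74.0 CPM with that of Cnidii Rhizoma, and most other libraries lie near the vehicle level of 10.2 to 11.5 CPM.

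Against the low dose of the same extract, HMOX1 rose in 4 of 6 high-dose comparisons (edgeR quasi-likelihood test, Benjamini-Hochberg adjustment over all genes, threshold 0.05). Its log2 change was 5.20 ± 0.29 (SE, adjusted p = 0.000182) with Astragali Radix, or 4.81 by library totals (adjusted p = 0.000183). It was 2.60 ± 0.05 with Cnidii Rhizoma (adjusted p = 1.9e-36) and 0.50 ± 0.06 with Rehmanniae Radix Preparata (adjusted p = 1.28e-07). The change of 0.37 ± 0.07 with Angelicae Gigantis Radix (adjusted p = 0.0026) rested on 4 libraries: adjusted p was 0.197 without the high replicate 2 0.0746 without the low replicate 3, 0.063 in a fit of these groups alone and 0.969 with all 54 replicated libraries in 1 fit. Paeoniae Radix gave 0.18 ± 0.06 (adjusted p = 0.0886) and Cinnamomi Cortex -0.05 ± 0.06 (adjusted p = 0.755), neither of which passed the test. At the medium dose HMOX1 rose by 0.59 ± 0.06 with Astragali Radix (adjusted p = 1.3e-10) and by 0.53 ± 0.06 with Cnidii Rhizoma (adjusted p = 1.45e-08). Between medium and high the extracts thus went on from 16.0 to 309.9 CPM and from 17.6 to 72.9 CPM.

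Ferritin transcripts were the most abundant of the 10 members, with medians over the 60 libraries of 5000 CPM for FTH1 (ENSG00000167996, chr11:61959718-61967660, minus strand) and 2562 CPM for FTL (ENSG00000087086, chr19:48965301-48966878, plus strand). FTL is the shorter by the union of annotated exons, 878 bp against 2030 bp for FTH1. Per kilobase of that union its median of 2918 CPM lay above the 2463 CPM of FTH1. This order depends on the lengths used, as the transcripts actually expressed can be shorter than the union. With Cnidii Rhizoma the low-dose libraries held 2654, 2629 and 2500 CPM of FTL, the medium 3231, 3036 and 3160 CPM, and the high 5731, 5535 and 5432 CPM. With Astragali Radix they held 2754, 2544 and 2508 CPM at the low dose, 3597, 3920 and 3797 CPM at the medium, and 8139, 10220 and 6921 CPM at the high. The 3 doses did not overlap with either extract.

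The light chain rose by 2.05 ± 0.19 on the log2 scale between the low and high doses of Astragali Radix (adjusted p = 0.000597, or 1.70 by library totals, adjusted p = 0.00127). It rose by 1.15 ± 0.05 with Cnidii Rhizoma (adjusted p = 4.76e-22) and by 0.28 ± 0.05 with Rehmanniae Radix Preparata (adjusted p = 0.000934), where the libraries went from 2333, 2482 and 2531 CPM to 2748, 3131 and 2959 CPM. Medium doses raised FTL by 0.59 ± 0.05 with Astragali Radix (adjusted p = 1.02e-11) and by 0.29 ± 0.05 with Cnidii Rhizoma (adjusted p = 0.000329). In a fit with the high Astragali Radix libraries included, adjusted p rose to 0.21 for Rehmanniae Radix Preparata and to 0.094 for the medium dose of Cnidii Rhizoma. FTL changed by 0.20 ± 0.06 with Angelicae Gigantis Radix (adjusted p = 0.142) and by 0.15 ± 0.05 with Paeoniae Radix (adjusted p = 0.062), and the high and low libraries did not overlap with either. Other fits called them: for Angelicae Gigantis Radix the groups alone (adjusted p = 0.0386) and no filter (adjusted p = 0.0011), and for Paeoniae Radix DESeq2 (adjusted p = 0.0307) and no filter (adjusted p = 0.000968).

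The heavy chain followed at a smaller size. FTH1 stood at 5004, 4790 and 4807 CPM with the low and at 7963, 7527 and 8173 CPM with the high dose of Cnidii Rhizoma, a log2 change of 0.74 ± 0.04 (adjusted p = 1.36e-20). With Astragali Radix it stood at 5141, 4936 and 5031 CPM with the low dose, 6474, 6584 and 6831 CPM with the medium and 11170, 12520 and 7525 CPM with the high. The third high-dose library lay well below the others and still above every medium-dose library. FTH1 rose there by 1.40 ± 0.20 (adjusted p = 0.0024, or 1.05 by library totals, adjusted p = 0.00876) at the high dose and by 0.45 ± 0.04 at the medium dose (adjusted p = 1.41e-12). The vehicle libraries held 5529, 5270 and 5525 CPM of FTH1, more than every low-dose library.

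A small rise of FTH1 with the high dose of Paeoniae Radix, 0.14 ± 0.04 (adjusted p = 0.00901), was not kept under other choices. Against vehicle it turned to -0.0965 (adjusted p = 0.0519), and adjusted p was 0.0825 without the high replicate 3, 0.0693 in a fit of these 2 groups alone and 0.527 with all 54 replicated libraries in 1 fit.

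Pseudogenes of ferritin could in principle take or give reads. The 25 FTH1 pseudogene entries held 0.156% to 0.27% of the summed counts of gene and pseudogenes, and the 16 FTL entries 0.0538% to 0.117%. When they were added to their parent genes, all 14 called ferritin results kept direction and call.

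The balance between both chains was read as the ratio of FTL to FTH1, each per kilobase, which was 1.076, 1.108 and 1.044 in vehicle. The size of the ratio depends on the exon lengths used, so only its differences between libraries are read here. With Cnidii Rhizoma it was 1.23 ± 0.0336 at the low dose and 1.63 ± 0.0859 at the high dose (SD, n = 3 each), and with Astragali Radix 1.19 ± 0.0428 and 1.9 ± 0.221. Rehmanniae Radix Preparata gave 1.15 ± 0.0259 and 1.27 ± 0.0393. In these 3 extracts the libraries did not overlap, and the exact 2-sided permutation test gave p = 0.1, the smallest that 3 against 3 allows (0.2 adjusted over 6 extracts), so this design cannot pass 0.05. Paeoniae Radix (1.22 against 1.21), Angelicae Gigantis Radix (1.23 against 1.18) and Cinnamomi Cortex (1.21 against 1.14) overlapped.

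**Figure D2:**
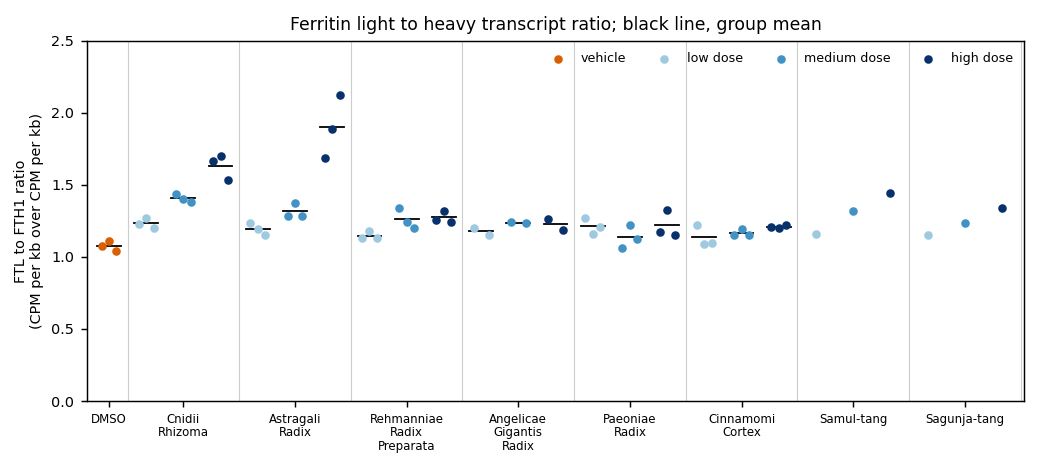
Ratio of FTL to FTH1 (CPM per kilobase over CPM per kilobase) in each of the 60 libraries by vehicle, extract and dose; black lines are means of groups with replicates. The ratio averages 1.63 with the high dose of Cnidii Rhizoma and 1.9 with that of Astragali Radix, against 1.23 and 1.19 with their low doses.

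BLVRB (ENSG00000090013, chr19:40447765-40465840, minus strand), the flavin and biliverdin reductase, rose with Astragali Radix and Cnidii Rhizoma. Its libraries went from 24.1, 24.9 and 25.2 CPM with the low dose of Astragali Radix to 30.3, 27.9 and 26.5 CPM with the medium and 74.9, 57.05 and 53.6 CPM with the high. With Cnidii Rhizoma they went from 26.0, 24.6 and 22.8 CPM to 34.3, 34.1 and 34.35 CPM between low and high. The groups of high-dose libraries were clear of the low in both. The log2 changes were 1.68 ± 0.15 (adjusted p = 0.000597, or 1.32 by library totals, adjusted p = 0.00192) and 0.53 ± 0.06 (adjusted p = 2.03e-09). The medium-dose rise with Astragali Radix, 0.24 ± 0.06 (adjusted p = 0.00372), was lost without the medium replicate 1 (adjusted p = 0.0546). In the other 4 extracts BLVRB changed by -0.06 to 0.18 between low and high and did not pass the test.

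BLVRA (ENSG00000106605, chr7:43758680-43807342, plus strand) was barely detected, at 0.3619 to 2.054 CPM and as few as 8 counts in a library. It passed no test, with SEs of 0.19 to 0.53 on the log2 scale against 0.05 to 0.29 for HMOX1 in the same high-dose comparisons. At this depth changes of BLVRA well above 1 SE could also be missed. With high Cinnamomi Cortex a change of -0.47 ± 0.20 was not called (adjusted p = 0.179).

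HMOX2 (ENSG00000103415, chr16:4474690-4510347, plus strand), the constitutive heme oxygenase, stayed between 46.7 and 77.1 CPM in all libraries. In 57 libraries outside high Astragali Radix it spanned 46.7 to 59.0 CPM. Per kilobase its median of 14.3 CPM lay above the 4.91 CPM of HMOX1. HMOX2 fell by 0.18 ± 0.05 on the log2 scale with the high dose of Cnidii Rhizoma, from 57.5, 55.6 and 52.1 CPM to 46.7, 47.7 and 47.2 CPM (adjusted p = 0.00809). Without the low replicate 1 adjusted p was 0.078, and with all 54 libraries in 1 fit 0.206. With the high dose of Astragali Radix the libraries held 77.1, 52.9 and 47.4 CPM against 57.2, 50.2 and 53.2 CPM, so the groups overlapped and 1 library stood far above the others (0.50 ± 0.18, adjusted p = 0.068). DESeq2 called that change (adjusted p = 0.0458), as did the fit without the high replicate 3 (0.59, adjusted p = 0.0169). A rise of 0.14 ± 0.05 with the medium dose (adjusted p = 0.0459) did not hold: adjusted p was 0.0511 by DESeq2, 0.286 by library totals and 0.054 to 0.299 when any 1 of 5 of the 6 libraries was left out.

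TFRC (ENSG00000072274, chr3:196027183-196082189, minus strand), the route of iron entry, moved in opposite directions. Its level was 601.2, 559.1 and 496.9 CPM in vehicle. With the high dose of Astragali Radix it stood at 321.3, 391.5 and 300.2 CPM, below all other libraries, against 628.6, 651.8 and 661.1 CPM with the low dose and 697.6, 718.8 and 715.6 CPM with the medium. With the high dose of Cnidii Rhizoma it stood at 740.0, 748.6 and 698.4 CPM against 655.7, 638.2 and 672.7 CPM with the low. The medium dose of Astragali Radix thus lay above its low dose and the high dose below it.

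The log2 change with high Astragali Radix was -0.57 ± 0.15 (adjusted p = 0.0209), and -0.94 by library totals (adjusted p = 0.00418). It was lost without any 1 of the low-dose libraries (adjusted p = 0.0847 to 0.0941), with the replicate number as a block (-0.58, adjusted p = 0.0666) and against vehicle (-0.40, adjusted p = 0.0814). TFRC rose by 0.19 ± 0.04 with medium Astragali Radix (adjusted p = 0.000284), by 0.20 ± 0.04 with high Cnidii Rhizoma (adjusted p = 7.08e-05) and by 0.21 ± 0.04 with high Paeoniae Radix (adjusted p = 0.000152), where it stood at 711.9, 716.3 and 732.7 CPM. With high Cinnamomi Cortex it rose by 0.16 ± 0.04 (adjusted p = 0.00584), a call lost without the low replicate 1 (adjusted p = 0.107), in a fit of these groups alone (adjusted p = 0.0778) and with all 54 libraries in 1 fit (adjusted p = 0.348). With medium Cnidii Rhizoma it rose by 0.14 ± 0.04 (adjusted p = 0.0277), lost by library totals (adjusted p = 0.123) and without any 1 of 5 of the 6 libraries (adjusted p = 0.0587 to 0.176).

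SLC40A1 (ENSG00000138449, chr2:189560579-189583758, minus strand), the iron exporter, was lowest with high Astragali Radix, at 49.5, 60.6 and 49.6 CPM against 123.0, 126.2 and 125.0 CPM with the low dose. All other libraries lay between 97.4 and 134.4 CPM. The log2 change was -0.86 ± 0.14 (adjusted p = 0.00436), -1.23 by library totals (adjusted p = 0.00152) and -0.66 against vehicle (adjusted p = 0.0127). The medium dose, at 114.1, 119.9 and 124.6 CPM, did not differ detectably from the low (-0.0035 ± 0.04, adjusted p = 0.971).

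Small falls of SLC40A1 against the low dose were called with 4 other extracts: Rehmanniae Radix Preparata (-0.22 ± 0.04, adjusted p = 0.00285), Cinnamomi Cortex (-0.19 ± 0.04, adjusted p = 0.00631), Paeoniae Radix (-0.17 ± 0.04, adjusted p = 0.0091) and Cnidii Rhizoma (-0.13 ± 0.04, adjusted p = 0.0247). None was seen against vehicle, which held 102.0, 105.1 and 104.7 CPM: the changes there were 0.0082, 0.0581, 0.0344 and 0.0128, with adjusted p from 0.381 to 0.929. Of these 4 calls 3 also hung on single libraries. Adjusted p was 0.0512 for Rehmanniae Radix Preparata without the high replicate 1, 0.2 for Paeoniae Radix without the high replicate 1 and 0.0508 without the low replicate 3 (0.0737 with these groups alone), and 0.0682 to 0.137 for Cnidii Rhizoma without any 1 of 4 libraries (high 1 and 3, low 2 and 3). With all 54 libraries in 1 fit all 4 were lost (adjusted p = 0.182 to 0.287). With Angelicae Gigantis Radix SLC40A1 changed by -0.20 ± 0.05 without overlap and just missed the threshold (adjusted p = 0.0592). It was called there by DESeq2 (adjusted p = 0.0213), library totals (0.045), no filter (0.0167) and the replicate block (0.01), and against vehicle it was 0.06 (adjusted p = 0.414).

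ALAS1 (ENSG00000023330, chr3:52198086-52214327, plus strand), which starts heme synthesis, rose with 3 high doses. It stood at 89.2, 120.1 and 117.3 CPM with high Astragali Radix against 54.2, 50.2 and 47.6 CPM with the low, a log2 change of 1.48 ± 0.19 (adjusted p = 0.00182, or 1.10 by library totals, adjusted p = 0.00318). With Cnidii Rhizoma it went from 52.7, 48.1 and 49.6 CPM to 66.7, 65.9 and 63.3 CPM (0.43 ± 0.05, adjusted p = 2.39e-09). With Paeoniae Radix it went from 55.6, 49.55 and 57.3 CPM to 66.2, 66.0 and 68.0 CPM (0.32 ± 0.05, adjusted p = 9.13e-06). No low-dose library reached its high-dose libraries in any of these extracts. Paeoniae Radix therefore raised ALAS1 without a call for HMOX1, although whether these changes differ between the genes was not tested. The medium dose of Astragali Radix, at 60.4, 57.2 and 60.6 CPM, gave 0.29 ± 0.05 (adjusted p = 2.72e-05).

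SLC48A1 (ENSG00000211584, chr12:47753916-47782753, plus strand), the endosomal heme transporter, reached its highest group mean with high Cnidii Rhizoma. The libraries there held 58.4, 57.1 and 57.15 CPM against 41.0, 41.2 and 41.7 CPM with the low dose (0.52 ± 0.05, adjusted p = 7.18e-11), and the medium dose stayed at 43.5, 40.05 and 42.3 CPM. With high Astragali Radix the libraries spread over 51.4, 59.6 and 44.6 CPM against 40.5, 42.05 and 42.4 CPM. The fitted change of 0.68 ± 0.14 (adjusted p = 0.00905) fell to 0.32 by library totals (adjusted p = 0.145), and adjusted p was 0.0585 to 0.0653 without any 1 of the low-dose libraries.

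**Figure D3:**
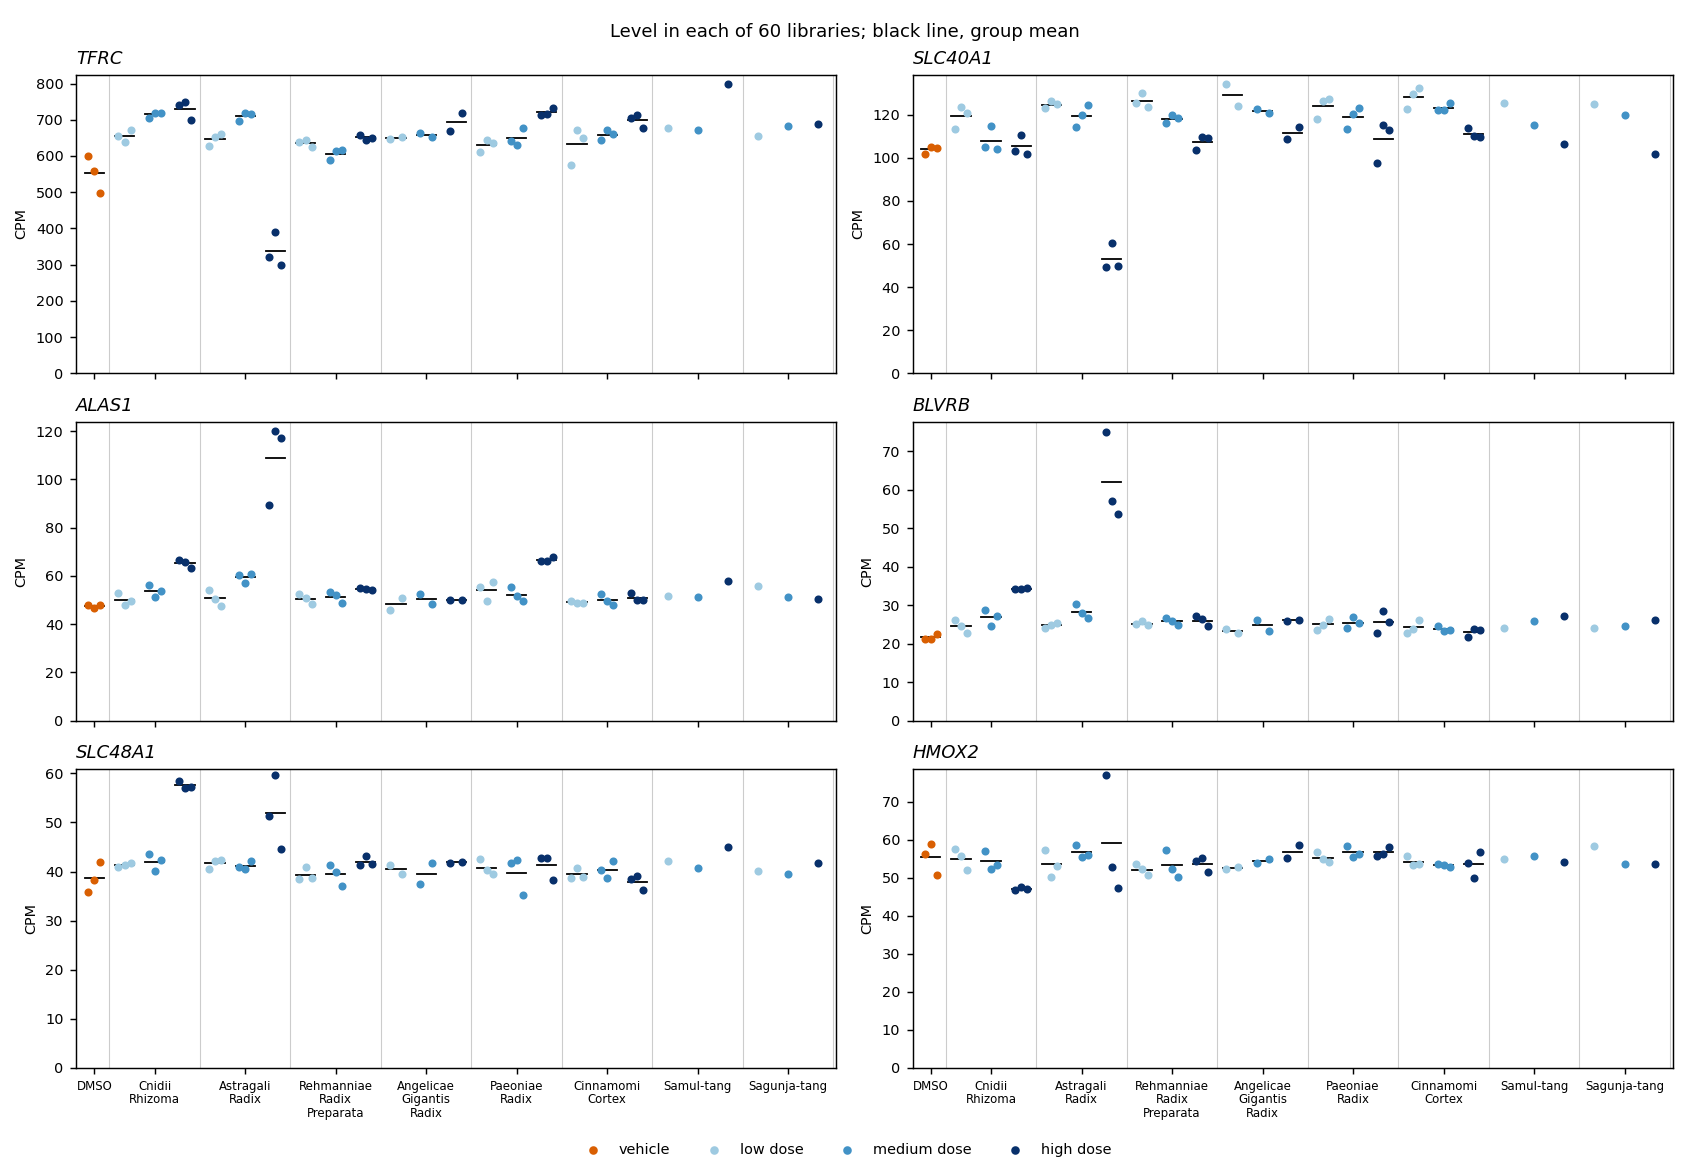
Level of TFRC, SLC40A1, ALAS1, BLVRB, SLC48A1 and HMOX2 in CPM (axes from 0) in each of the 60 libraries by vehicle, extract and dose; black lines are means of groups with replicates. With the high dose of Astragali Radix TFRC (300.2 to 391.5 CPM) and SLC40A1 (49.5 to 60.6 CPM) lie below all other groups, and ALAS1 and BLVRB above them.

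Calls were counted over the 10 genes, all of which passed the filter on low counts in every comparison. High Cnidii Rhizoma had 7 higher and 2 lower, where 12.1% of 16608 genes were called higher and 11.6% lower. The median log2 change was 0.48 over the members and 0 over all genes. High Astragali Radix had 6 higher and 2 lower, with 21.9% of 15236 genes called higher and 18.3% lower (medians 1.04 and 0.02). These counts come from fits of 51 and 6 libraries with unlike SEs, so they do not rank these extracts. With all 54 replicated libraries in 1 fit, HMOX2 was also called with high Astragali Radix (edgeR, adjusted p = 6.89e-07). In that fit high Cnidii Rhizoma lost HMOX2 and SLC40A1. At the medium dose Astragali Radix had 7 higher against a background of 7.24% higher and 9.3% lower, and Cnidii Rhizoma 3 higher (HMOX1, FTL and TFRC) against 1.63% higher and 1.49% lower.

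The other extracts had fewer calls among the 10. High Paeoniae Radix had 3 higher (ALAS1, TFRC and FTH1) and 1 lower (SLC40A1), with 5.44% of genes called higher and 4.06% lower. High Rehmanniae Radix Preparata had 2 higher (HMOX1 and FTL) and 1 lower (SLC40A1), with 0.813% and 0.62%. High Angelicae Gigantis Radix had HMOX1 higher, with 0.68% and 0.524%, and high Cinnamomi Cortex TFRC higher and SLC40A1 lower, with 3.27% and 2.81%.

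Medium doses of these 4 extracts had no member called by edgeR or by DESeq2. At an unadjusted p under 0.05 there was 1 member with Rehmanniae Radix Preparata (FTL), 1 with Cinnamomi Cortex (HMOX1) and 0 with the others. Over all genes edgeR called 0.403% with medium Paeoniae Radix and 0% with the medium doses of Angelicae Gigantis Radix, Rehmanniae Radix Preparata and Cinnamomi Cortex, where DESeq2 called 0, 2 and 2 genes and 764, 1347 and 1074 genes had an unadjusted p under 0.05.

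**Figure D4:**
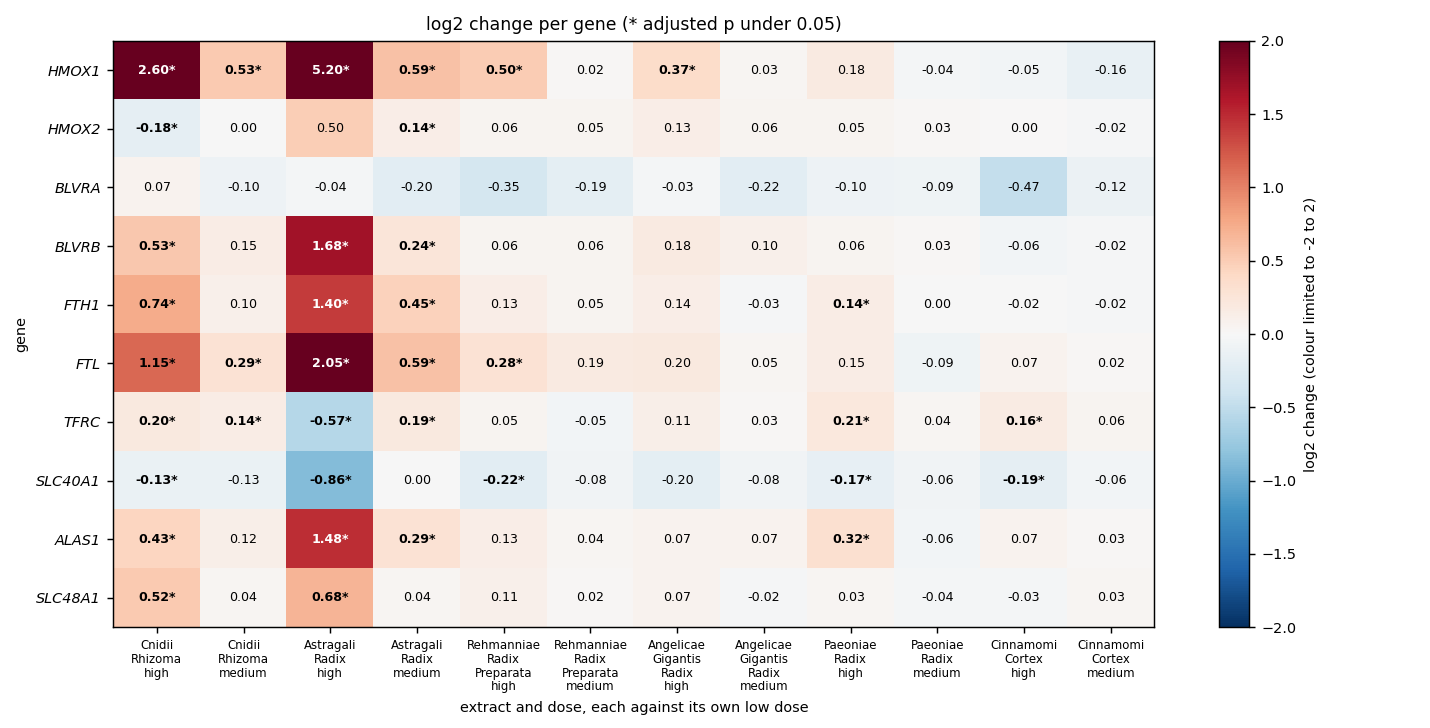
Fitted log2 change of each of the 10 genes (rows) for the high and medium dose of 6 extracts against the low dose (columns); colour runs from -2 to 2 and an asterisk marks an adjusted p under 0.05. HMOX1, FTL, FTH1, BLVRB, ALAS1 and SLC48A1 are higher with the high doses of both Cnidii Rhizoma and Astragali Radix, and TFRC has opposite signs in them (0.20 and -0.57).

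The extracts with the strongest HMOX1 change were compared with each other by the difference of their changes, high minus low with Astragali Radix less high minus low with Cnidii Rhizoma, in a fit of those 12 libraries. The doses were equal in µg/mL of extract, and the plants' constituents were not measured. HMOX1 differed by 2.58 ± 0.24 on the log2 scale (adjusted p = 1.94e-05), BLVRB by 1.15 ± 0.15 (adjusted p = 0.00018), ALAS1 by 1.05 ± 0.19 (adjusted p = 0.00125) and FTL by 0.91 ± 0.17 (adjusted p = 0.00198). TFRC differed by -0.77 ± 0.14 (adjusted p = 0.00165) and SLC40A1 by -0.73 ± 0.14 (adjusted p = 0.00212). These 6 were also called by library totals. For FTH1 (0.66 ± 0.20, adjusted p = 0.0221) and HMOX2 (0.67 ± 0.19, adjusted p = 0.0178) the difference was lost by library totals (0.35, adjusted p = 0.211, and 0.37, adjusted p = 0.201), without a filter (adjusted p = 0.0814 and 0.0787) and without 1 library. Adjusted p reached 0.0633 for FTH1 without the high Cnidii Rhizoma replicate 2, and it was 0.0508 to 0.0585 without any 1 of high 1 or low 1 of Cnidii Rhizoma or of low 2 or 3 of Astragali Radix. For HMOX2 it was 0.0525 without the low Cnidii Rhizoma replicate 1 and 0.0561 without the low Astragali Radix replicate 2. SLC48A1 (0.16 ± 0.14, adjusted p = 0.394) and BLVRA passed neither. In this fit 20.1% of 15919 genes were called higher and 17.8% lower.

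At the medium dose the same difference was called for both ferritin chains, FTH1 by 0.35 ± 0.05 (adjusted p = 1.06e-05) and FTL by 0.30 ± 0.07 (adjusted p = 0.00913), with 1.67% of all genes called higher and 3.52% lower (the higher share of calls went from 32.2% to 15.7% by library totals). HMOX1 differed by 0.06 ± 0.08 (adjusted p = 0.791), so at 100 µg/mL Astragali Radix gave more ferritin mRNA than Cnidii Rhizoma for an HMOX1 change that was not separable from it. With all 54 libraries in 1 fit the differences for FTH1 and FTL were not called (adjusted p = 0.131 and 0.291).

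The low doses as a group differed from vehicle, which bears on every change read against a low dose. Over the 6 low doses TFRC was higher than in vehicle by 0.16 ± 0.03 (adjusted p = 3.86e-05) and SLC40A1 by 0.21 ± 0.04 (adjusted p = 6.77e-06), and FTH1 was lower by a log2 change of -0.22 ± 0.03 (adjusted p = 1.46e-07). HMOX1 changed by 0.04 ± 0.05 (adjusted p = 0.664), and the other 6 members did not pass the test. HMOX2 (-0.09 ± 0.04, adjusted p = 0.0609) was near the threshold and was called with the replicate block (adjusted p = 0.039) and without single libraries (lowest adjusted p = 0.015, without vehicle replicate 3). Of all genes 16.6% were called higher and 15.9% lower in the low doses (by library totals the higher share of calls went from 51.1% to 74.1%). The library codes in the labels put the vehicle in a set of its own, while all titles carry the same batch letter, D. The extracts also fell in separate code sets: Paeoniae Radix with Angelicae Gigantis Radix, Cnidii Rhizoma with Rehmanniae Radix Preparata, Astragali Radix with Cinnamomi Cortex, and the formulas together. Mitochondrial transcripts took 9.41% to 12.3% of vehicle counts against 7.55% to 10.0% in the low doses. Vehicle and code set cannot be told apart, and levels of extracts from different sets carry the same limit. Read against vehicle instead of the low dose, the high doses of Cnidii Rhizoma gave HMOX1 2.75, FTL 1.13, FTH1 0.53, BLVRB 0.66 and TFRC 0.40, and those of Astragali Radix HMOX1 5.18, FTL 2.03, FTH1 1.23 and BLVRB 1.81.

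A wider list of 56 genes of heme and iron handling, chosen for function, gave the setting. It had 46 genes tested, or 45 in the high Astragali Radix fit; ALAS2, HPX, HP, CD163, TF, HAMP, HJV, BMP6, TMPRSS6 and FTMT were too low to test. High Cnidii Rhizoma raised 12 and lowered 2, or 26.1% and 4.35% of those tested, against 12.1% and 11.6% of all genes. The list median was 0.04 against 0 over all genes. The largest rises were of ABCG2, an efflux pump that also exports heme and porphyrins (1.12 ± 0.04, 88.1 to 185 CPM), FECH, which inserts iron into protoporphyrin in the last step of heme synthesis (1.05 ± 0.05, 19.1 to 38.2 CPM), ABCB6, a porphyrin transporter (0.98 ± 0.05, 33.4 to 63.6 CPM), and MAFG, a small MAF protein (0.60 ± 0.04, 79.7 to 117 CPM). The falls were of STEAP2, a metalloreductase (-0.33 ± 0.08), and ACO1 (-0.11 ± 0.04).

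High Astragali Radix raised 9 of the 45 and lowered 6, or 20% and 13.3%, both below the 21.9% and 18.3% of all genes, so the list was not called more often than other genes. The list median was -0.08 against 0.02 over all genes. The list was not refitted by library totals, and the mean CPM of each gene named here moved in the direction of its fitted change. Of 6 genes listed as NRF2 and BACH1 regulators 4 rose: MAFF (3.62 ± 0.24, 12.1 to 114 CPM), MAFK (2.34 ± 0.22, 43.9 to 174 CPM), MAFG (1.41 ± 0.18, 78.4 to 162 CPM) and KEAP1, the adaptor that marks NRF2 for degradation (0.81 ± 0.17, 61.2 to 83.7 CPM). ABCB6 rose by 1.42 ± 0.28 (32.4 to 68.8 CPM). The largest falls were of STEAP2 (-1.24 ± 0.29, 27.7 to 9.19 CPM), SLC25A37, the mitochondrial iron importer mitoferrin-1 (-1.09 ± 0.13, 56.7 to 20.7 CPM), ALAD, the second enzyme of heme synthesis (-0.77 ± 0.15, 47.6 to 21.8 CPM), and SLC11A2, the iron transporter DMT1 (-0.76 ± 0.18, 58.5 to 26.5 CPM). ABCG2, which rose with Cnidii Rhizoma, changed by -0.63 ± 0.16 (92.5 to 46.2 CPM), and the difference between the extracts was -1.75 ± 0.16 (adjusted p = 1.56e-05).

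Among other genes of heme synthesis with high Astragali Radix, 1 of 8 tested rose (UROD) and 2 fell (ALAD and CPOX), which with so few genes cannot be set apart from the 21.9% and 18.3% of all genes. With high Cnidii Rhizoma FECH and UROS rose. MAFF and MAFK, which led with Astragali Radix, were not called with Cnidii Rhizoma, and the difference between extracts was 3.71 ± 0.22 for MAFF and 2.35 ± 0.24 for MAFK, both called.

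In the other extracts against their low dose the list gave 4 higher and 2 lower with high Paeoniae Radix (8.7% and 4.35%, against 5.44% and 4.06% of all genes: MAFF 0.28, MAFK 0.25, MAFG 0.24 and NFE2L2 0.11, which encodes NRF2; HEPH -0.22 and ALAD -0.19). It gave 4 higher and 1 lower with high Rehmanniae Radix Preparata (8.7% and 2.17%, against 0.813% and 0.62%: ABCB6 0.27, FECH 0.25, ABCG2 0.18 and MAFG 0.14; ACO1 -0.15), 1 higher with high Angelicae Gigantis Radix (2.17% against 0.68%: ABCB6 0.24) and 1 lower with high Cinnamomi Cortex (2.17% against 2.81%: LRP1 -0.17). Medium Astragali Radix gave 10 higher and 3 lower (21.7% and 6.52%, against 7.24% and 9.3%), and medium Cnidii Rhizoma 4 higher (8.7% against 1.63%: FECH, ABCG2, ABCB6 and MAFG) and 0 lower. No list gene was called in the other medium doses by edgeR. The 6 low doses against vehicle gave 12 higher and 3 lower (26.1% and 6.52%, against 16.6% and 15.9%), as many higher as high Cnidii Rhizoma. The difference between Astragali Radix and Cnidii Rhizoma gave 8 higher and 11 lower at the high dose (17.8% and 24.4%, against 20.1% and 17.8%) and 2 higher and 1 lower at the medium dose (4.35% and 2.17%, against 1.67% and 3.52%).

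**Figure D5:**
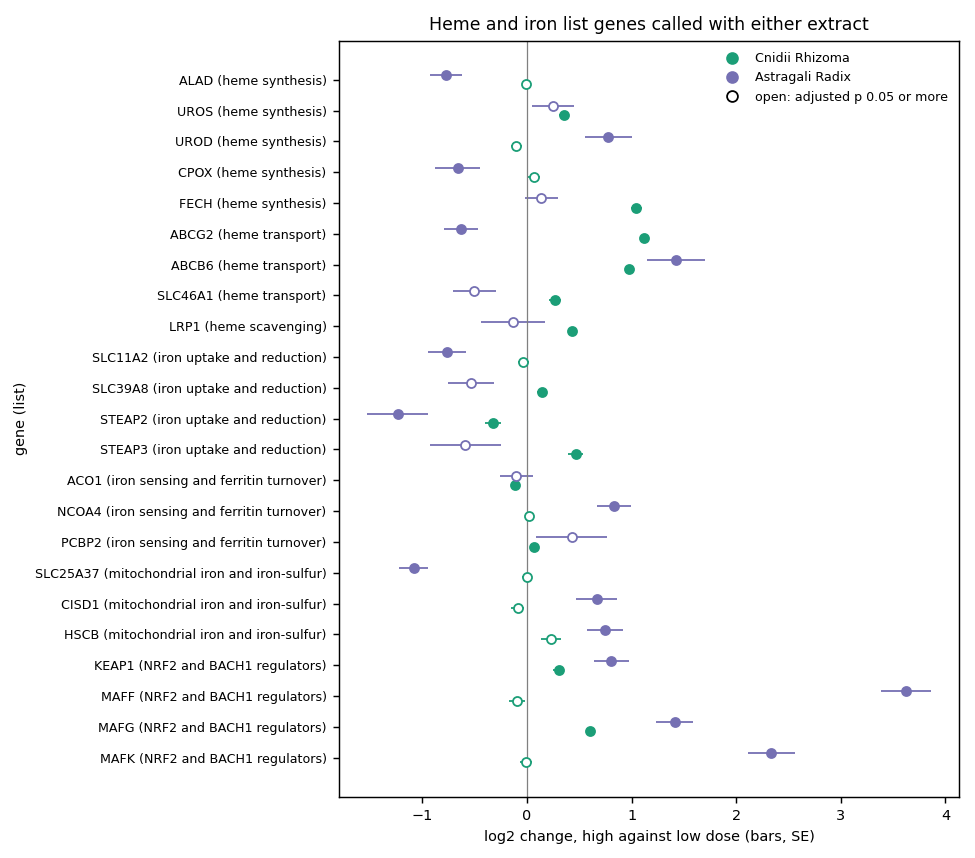
Fitted log2 change between the low and high dose of Cnidii Rhizoma (green) and Astragali Radix (purple) for listed heme and iron genes called with either extract, not all of them shown; bars are SE and open points did not pass the test. MAFF (3.62) and MAFK (2.34) lie far to the right with Astragali Radix alone, and ABCG2 has opposite signs (1.12 and -0.63).

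The formulas had 1 library per dose, so their values carry counting error only (95% exact Poisson intervals) and no test. Samul-tang, a formula traditionally made from Rehmanniae, Angelicae, Paeoniae and Cnidii roots and rhizomes, held 11.1 CPM of HMOX1 (9.87 to 12.5) at the low dose, 13.5 CPM (12.2 to 14.95) at the medium and 25.1 CPM (23.25 to 27.1) at the high. The interval of the high-dose library lay above those of the other doses and below every high-dose Cnidii Rhizoma library. FTL in the same libraries was 2309, 2706 and 3468 CPM and FTH1 4600, 4746 and 5548 CPM. TFRC reached 799.9 CPM in high-dose Samul-tang, the highest of the 60 libraries, against 676.0 CPM at the low dose. Sagunja-tang held 12.3, 11.1 and 15.3 CPM of HMOX1 from low to high dose and 2321, 2544 and 2862 CPM of FTL. SLC40A1 went from 125.5 to 106.2 CPM with Samul-tang and from 125.1 to 101.8 CPM with Sagunja-tang.

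Genes whose group means followed HMOX1 most closely were ranked by Pearson correlation of mean log2(CPM + 1) over the 24 groups other than high Astragali Radix, among 186 named genes with a mean of at least 5 CPM and a range of at least 1 on that scale. The highest were UGDH (0.983), EPHX1 (0.980), FECH (0.979), AKR1C2 (0.978, a gene whose near-identical relatives can share its reads) and OSGIN1 (0.972). The lowest were ROR1 (-0.974), LMO4 (-0.960) and CLIC5 (-0.957). The members were correlated in the same way, but without the limits of 5 CPM and a range of 1. Among the members, SLC48A1 (0.946) and FTL (0.935) followed HMOX1 most closely, then BLVRB (0.889), FTH1 (0.847), ALAS1 (0.637) and TFRC (0.548), while BLVRA (-0.361), SLC40A1 (-0.521) and HMOX2 (-0.612) had negative values. The high dose of Cnidii Rhizoma is the one group far above the rest in HMOX1, so these values are a description of that group as much as of the order of the others.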

How the data were processed

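RNA from HT29 cells was sequenced as paired-end 100 bp reads with a directional MGI kit, per the labels' protocols. The values are expected counts per gene that the authors deposited, made with FastQC 0.11.9, Trim Galore 0.6.5, STAR 2.7.3a and RSEM 1.3.3 on hg38 (GRCh38), per the submitters' processing notes. No annotation release or strand setting is given in the sources used here. RSEM shares multi-mapping reads between genes by an estimate. Of 273 columns 213 belonged to no library mapped here and were not used. In the 60 columns used 8.78% of values were not whole; they were rounded, and the largest shift of a total was 0.000184%.

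Names were taken from a supplied identifier table (56558 entries) and GENCODE v29 (another 497). Entries with no name (3620) stayed in the totals. CPM are counts scaled to the library total, and levels per kilobase use the union of exons in GENCODE v29. Tests used edgeR 4.0.16 in R 4.3.3 (TMM scaling, low counts filtered by group, quasi-likelihood F test, Benjamini-Hochberg threshold 0.05). A fit of 51 libraries in 18 groups served all comparisons except high Astragali Radix against its low dose (6 libraries) and its difference from Cnidii Rhizoma (12 libraries). SE was taken as the size of the log2 change over the root of the F statistic. The script was tested on simulated data. List genes are named up to 4 per direction and extract by size of change in high against low, and any beyond these were named after their values were seen. Alternatives were DESeq2 1.42.0, library totals, no filter, all 54 replicated libraries in 1 fit, the compared groups alone, vehicle as reference, the replicate number as a block, pseudogene counts summed, and each library left out in turn. In the differences between extracts a vehicle reference cancels, so that alternative compared both extracts directly at the same dose. Values of some list and marker genes are not reported here. The members, lists and fits were chosen with earlier results of these data known.

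Every same-number correlation was over 0.1 in high Paeoniae Radix, high Cinnamomi Cortex and medium Cinnamomi Cortex against their low doses, at 0.125 to 0.145, 0.149 to 0.24 and 0.11 to 0.302. Whether replicate numbers mark true pairs is not given in the labels.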

Additional observations from a re-analysis of the deposited data

Results flagged for a closer look

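These results are listed because the test of a difference between extracts passed, comparing the change from low to high or medium dose with Astragali Radix against that with Cnidii Rhizoma (edgeR, log2 scale, adjusted over all genes). At the high dose the differences were 2.58 for HMOX1, 1.15 for BLVRB, 1.05 for ALAS1, 0.91 for FTL, 0.67 for HMOX2, 0.66 for FTH1, -0.73 for SLC40A1 and -0.77 for TFRC, each with 3 libraries per dose and extract. Those for HMOX2 and FTH1 were lost by library totals (edgeR, adjusted p = 0.201 and 0.211). TFRC is the member whose called change had opposite signs in the extracts (0.20 with Cnidii Rhizoma, -0.57 with Astragali Radix). The fall with Astragali Radix was not called against vehicle (-0.40, edgeR adjusted p = 0.0814), with the replicate block or without any 1 of the low-dose libraries. At the medium dose the differences were 0.35 for FTH1 and 0.30 for FTL, and neither was called with all 54 replicated libraries in 1 fit.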

How the results depend on the processing

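Of 50 called member results 31 kept direction and call under every alternative run, among them HMOX1, FTL, FTH1, BLVRB and ALAS1 with the high doses of Cnidii Rhizoma and Astragali Radix, and 36 kept the call with each library left out in turn. With vehicle as reference 5 changed sign: FTH1 with high Paeoniae Radix (-0.0965), and SLC40A1 with high Paeoniae Radix (0.0344), Cnidii Rhizoma (0.0128), Rehmanniae Radix Preparata (0.0082) and Cinnamomi Cortex (0.0581). Counts of members called that moved by over 1.5 times were as follows. For high Angelicae Gigantis Radix the count of 1 became 2 by DESeq2, library totals and the replicate block, 3 without a filter and against vehicle, 0 with all 54 libraries in 1 fit, and 0 to 1 with 1 library left out. For high Paeoniae Radix the count of 4 became 2 with all 54 libraries and 2 with the groups alone. For high Rehmanniae Radix Preparata the count of 3 became 1 with all 54 libraries and 5 against vehicle, and for high Cinnamomi Cortex the count of 2 became 0 with all 54 libraries, 1 with the groups alone and 1 to 2 with 1 library left out. For medium Cnidii Rhizoma the count of 3 became 1 with all 54 libraries and 6 against vehicle. The count of 0 at the other medium doses became, against vehicle, 5 with Paeoniae Radix, 4 with Cinnamomi Cortex, 3 with Angelicae Gigantis Radix and 3 with Rehmanniae Radix Preparata (1 without a filter). The medium-dose difference between extracts went from 2 to 0 with all 54 libraries. It went to 4 with the medium doses of both extracts compared directly, which crosses code sets. The low doses against vehicle ranged from 3 to 5 with 1 library left out, the highest without the low Cinnamomi Cortex replicate 1. The fit of all 54 libraries takes in the wide spread of the high Astragali Radix libraries. Results gained elsewhere were FTH1 with high Rehmanniae Radix Preparata (adjusted p = 0.0202 by DESeq2, 0.0241 without a filter, 0.0208 with the block), FTL with its medium dose (3.55e-05 without a filter), FTH1 and SLC40A1 with medium Cnidii Rhizoma (0.0459 without a filter and 0.0351 with the block), and in the low doses against vehicle BLVRB (0.00719 by library totals) and FTL (0.0306 without a filter). The replicate block ended 1 call, TFRC with high Astragali Radix (-0.58, adjusted p = 0.0666), and no other, and gained those named here and in the results. Same-numbered high and low libraries of Astragali Radix correlated at -0.009 to 0.205. With so few libraries these values cannot settle whether the numbers mark pairs, so the loss of that call stands as a limit. Counting error limits BLVRA (as few as 8 counts) more than any other member.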
